A study of Mus musculus with 536 samples.

Results

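Mt1 and Mt2 encode the metallothioneins that most mouse tissues make, and they are 2 of the 12393 genes measured here in peripheral blood. Both were taken by name, and where a gene had several probe sets the brightest on average was used. They are described at every dose, time and agent. The study asked how whole-body ionizing radiation changes blood gene expression with dose and time, and profiled C57BL/6 mice of 10 to 12 weeks on 536 Affymetrix mouse 430A 2.0 arrays, from 534 mice in 109 groups. Single doses came from a caesium source at 480 cGy per minute, blood was drawn by terminal cardiac puncture into an RNA-preserving fluid, and the RNA was depleted of beta globin before amplification.

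The titles separate 4 sets of mice. The dose-time set held 240 mice that received 0, 100, 200, 300 or 450 cGy, or the higher doses of 600, 800 and 1050 cGy, and were bled at 6, 24, 48, 72, 120 or 168 hr, with 5 mice in each of its 48 groups and no agent. The sex and treatment set held 111 female and 115 male mice given LPS, GCSF or no agent and 0, 200, 300 or 600 cGy, bled at 6 or 24 hr, with 3 to 5 mice in each of its 48 groups. The small treatment set held 50 mice given LPS, GCSF or no agent and 0, 150 or 600 cGy, bled at 6 hr, with 5 or 6 mice per group. The small 7 day set compared 10 mice at 150 cGy with 3 mice at 0 cGy, all at 168 hr and without agent, and held 5 further 0 cGy mice bled at 6 or 24 hr. LPS is bacterial lipopolysaccharide, which triggers inflammation, and GCSF is the cytokine that drives neutrophil production; the labels give neither their amount nor when they were given. Sex is labelled unknown outside the sex and treatment set.

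Metallothioneins are small cysteine-rich proteins that bind zinc and copper. Zinc acts on their genes through the transcription factor MTF1, and glucocorticoids and the interleukin 6 to STAT3 pathway also raise them, which makes the liver, where they are part of the acute-phase response, a major site of their expression. White blood cells carry both transcripts too, so whole blood is a mixed source.

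MTF1 binds metal response elements, and the promoters are shown because these elements are the route by which zinc reaches both genes. Mt2 and Mt1 are neighbours on the plus strand of chromosome 8 with 0 genes between them in RefSeq. The 250 bases before each RefSeq start in GRCm38.p6, at chr8:94172368-94172617 for Mt2 and chr8:94178839-94179088 for Mt1, read as follows, with capitals marking matches to the metal response element core, TGCACNC or TGCGCNC on either strand.
Mt2: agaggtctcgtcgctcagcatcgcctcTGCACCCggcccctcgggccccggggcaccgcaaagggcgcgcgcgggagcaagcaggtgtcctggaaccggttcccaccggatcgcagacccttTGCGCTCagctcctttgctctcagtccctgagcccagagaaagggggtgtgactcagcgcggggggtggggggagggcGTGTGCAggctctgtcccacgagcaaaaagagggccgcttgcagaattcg
Mt1: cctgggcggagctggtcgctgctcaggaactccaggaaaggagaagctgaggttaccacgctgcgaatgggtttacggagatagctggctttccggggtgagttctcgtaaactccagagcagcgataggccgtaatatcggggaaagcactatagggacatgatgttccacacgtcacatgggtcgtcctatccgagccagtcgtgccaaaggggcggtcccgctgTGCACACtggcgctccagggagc
Counted over these bases and the 50 after the start, Mt2 held 4 matches to the core, with 3 of them before the start, and Mt1 held 3, with 1 before it. Of 32817 mouse promoters of the same 300 bases, 25.7% held at least 1 match, 1.97% at least 3 and 0.518% at least 4. The antioxidant element TGACNNNGC was found once in the Mt2 window, at position -79 from the start, and in 12.4% of all promoters. Neither window held the STAT motif TTCNNNGAA, which 8.29% of promoters held, the E-box CACGTG, which 7.15% held, or the full consensus palindrome of the glucocorticoid response element, which 0.00914% held. A match describes letters in this window only. The RefSeq start used for Mt1 may lie upstream of the start in common use, in which case the window leaves out bases of the Mt1 promoter next to that start, and the Mt1 counts hold for this window alone.

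Values are log2 RMA signals, so 1 unit is a doubling, and levels of different probe sets cannot be set against each other. The Mt1 probe set averaged 9.13 over all arrays, with a range of 5.52 to 13.94, and is of a type whose probes may match more than 1 transcript. A second Mt1 probe set averaged only 5.88, between 4.89 and 7.86. The Mt2 probe set averaged 7.38 and ranged between 4.87 and 12.90. Blood markers were present: median signals were 14.24 for Alas2 of red cell precursors, 13.41 for S100a8 of neutrophils, 8.67 for Cd3e of T cells and 8.18 for Cd79a of B cells. Albumin (Alb), a hepatocyte transcript, ranged between 4.79 and 14.79, so liver transcripts were near the bottom of the scale in some libraries and near its top in others. In blood, fewer cells of a type and less RNA per cell cannot be told apart. Unless stated otherwise, tests are limma's moderated tests with Benjamini-Hochberg adjustment over all 12393 genes, errors are standard errors (SE), and a gene was called where the adjusted p was under 0.05. A replicate left out by number is the mouse at that place, 1 to 5, in the order of its group.

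Across the dose-time set, both metallothioneins rose most at the highest doses and the latest times. The lowest group mean of Mt1 was 6.51 ± 0.45 (SD, n = 5), at 0 cGy and 120 hr, and the highest was 13.14 ± 0.75 (SD, n = 5), at 1050 cGy and 168 hr. The same 2 groups were the extremes for Mt2, with 5.89 ± 0.21 and 11.51 ± 1.47 (SD, n = 5 each). The group means thus spanned 6.63 units for Mt1 and 5.62 units for Mt2.

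**Figure D1:**
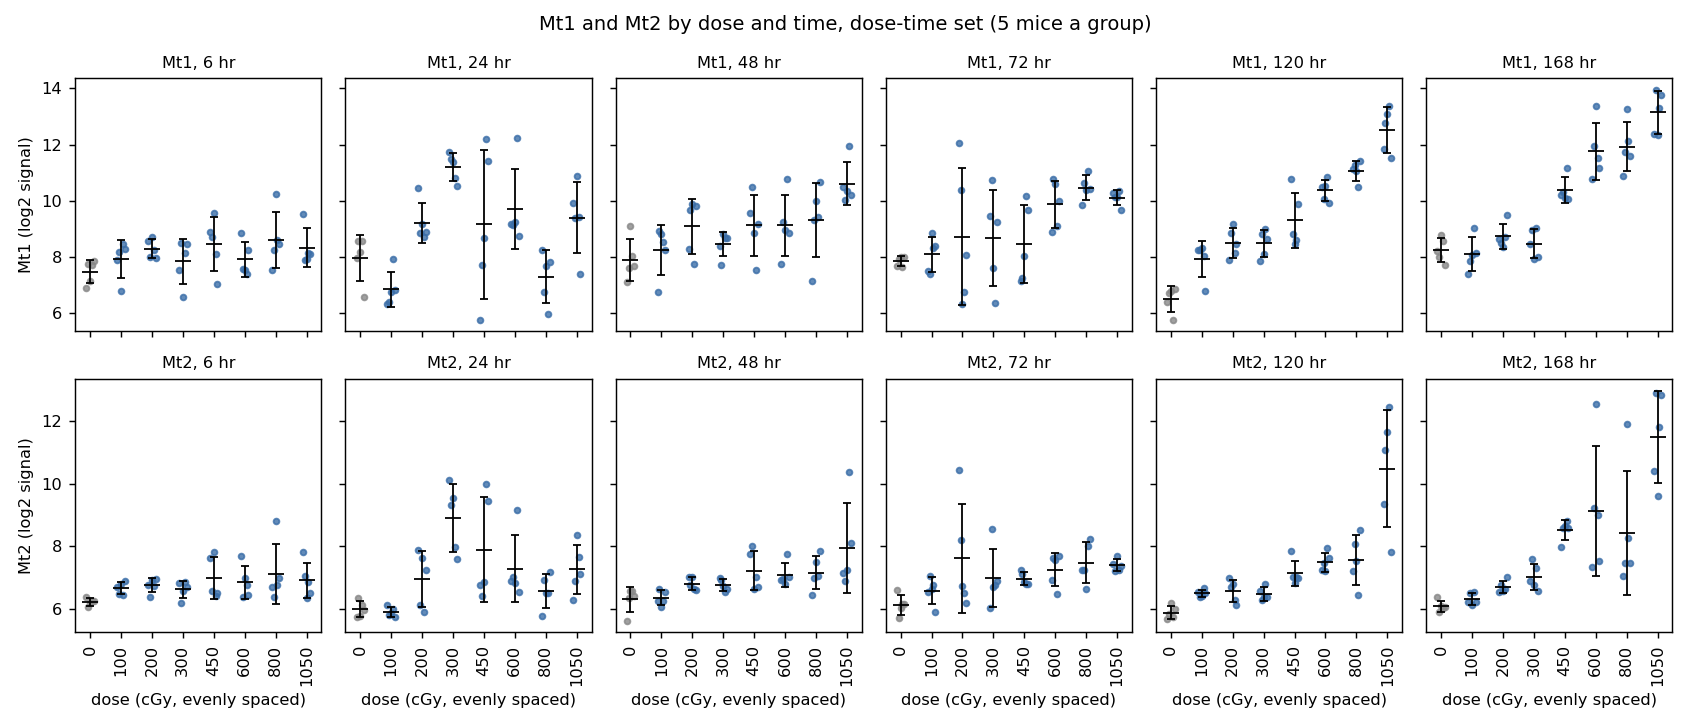
Mt1 and Mt2 log2 signals of every mouse of the dose-time set (vertical axes) by dose in cGy (horizontal axes, evenly spaced) and hours after exposure (panels); points are mice, bars mark the group mean and SD of 5 mice. At 120 and 168 hr the 1050 cGy mice lie above every 0 cGy mouse for both genes, whereas at 24 hr the 300 cGy mice are the high group.

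At 168 hr, Mt1 was 12.33, 12.39, 13.30, 13.76 and 13.94 in the 5 mice at 1050 cGy, against 7.72, 8.01, 8.22, 8.56 and 8.78 in the 5 mice at 0 cGy. Mt2 was 9.61, 10.40, 11.81, 12.84 and 12.90 at 1050 cGy, against 5.91, 6.02, 6.05, 6.10 and 6.38 at 0 cGy. Neither gene's groups overlapped, and the irradiated mice spread widely for Mt2. How many of all genes had groups apart, here or in the comparisons below, was not counted. At this time 94.5% of all genes were called for a difference among the doses. The difference of 1050 minus 0 cGy was 4.88 ± 0.60 for Mt1, or 29.5-fold, and 5.42 ± 0.52 for Mt2, or 42.9-fold. The step lay between 300 and 450 cGy for Mt1, with 7.95, 8.0, 8.46, 8.95 and 9.05 at 300 cGy and 10.07, 10.09, 10.22, 10.32 and 11.17 at 450 cGy. For Mt2 the mice at 300 cGy had 6.58, 6.77, 6.89, 7.31 and 7.59, all above the 0 cGy mice, and those at 450 cGy had 7.97, 8.58, 8.59, 8.66 and 8.81. Single mice stood high within the intermediate groups: Mt2 was 11.90 in 1 mouse at 800 cGy whose 4 group mates lay between 7.05 and 8.28.

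The slope on dose at 168 hr was 0.53 ± 0.044 per 100 cGy for Mt1, adjusted p = 4.89e-24, and 0.48 ± 0.038 for Mt2, adjusted p = 2.39e-25. A dose trend at this time was called in 82.2% of all genes, so a call alone does not set the metallothioneins apart. By size, the Mt1 slope ranked 130 and the Mt2 slope 158 from the highest of the 12393 genes.

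At 120 hr, Mt1 was 11.52, 11.83, 12.76, 13.09 and 13.37 at 1050 cGy, against 5.77, 6.40, 6.73, 6.78 and 6.88 at 0 cGy. Mt2 was 7.83, 9.35, 11.08, 11.66 and 12.47 at 1050 cGy, against 5.68, 5.74, 5.83, 6.00 and 6.18 at 0 cGy. Again no irradiated mouse of these groups lay among the unirradiated ones. The differences were 6.00 ± 0.60 for Mt1, or 64.2-fold, and 4.59 ± 0.52 for Mt2, or 24.1-fold. Slopes were 0.52 ± 0.044 per 100 cGy for Mt1, adjusted p = 1.37e-23, and 0.35 ± 0.038 for Mt2, adjusted p = 2.05e-16, at a time when 82.4% of genes were called.

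The group medians of Mt1 at 120 hr were higher at each successive dose. At 100 cGy the 5 mice had 6.80, 8.05, 8.26, 8.27 and 8.32, so that 4 of them lay above all 0 cGy mice. The 600 cGy mice had 9.93, 10.06, 10.49, 10.54 and 10.86, and the 800 cGy mice 10.49, 11.05, 11.12, 11.27 and 11.41. Mt2 climbed less evenly: the 800 cGy mice had 6.46, 7.23, 7.52, 8.08 and 8.52, and most of its range came from the step to 1050 cGy. The 0 cGy mice at 120 hr had the lowest Mt1 mean of the 6 unirradiated groups, which enlarges the Mt1 differences at that time.

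Liver transcripts moved with these late rises. All 20 of the 20 hepatocyte markers listed rose with dose at 120 hr, with a median slope of 0.91 per 100 cGy, and all 20 rose again at 168 hr, with a median of 0.88 against -0.016 over all genes. Of all 12393 genes, 4387 rose at 120 hr and 4405 at 168 hr. Alb was at 10 or above in all 5 mice of every group at 450 cGy or more at both times, and its range was 14 to 14.78 in the 1050 cGy mice against 5.64 to 8.69 in the 0 cGy mice at 168 hr. Adding the mean of the hepatocyte markers to the fit as a covariate left slopes of 0.24 ± 0.04 at 120 hr, adjusted p = 3.35e-08, and 0.26 ± 0.04 at 168 hr, adjusted p = 2.91e-09, for Mt1. For Mt2 it left 0.22 ± 0.043, adjusted p = 3.22e-06, and 0.34 ± 0.043, adjusted p = 5.58e-13.

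Leaving out every array with Alb at 10 or above removed all mice at 450 cGy or more at these times, so what remains is the trend over 0 to 300 cGy. Over those doses the Mt1 slope was 0.64 ± 0.13 at 120 hr, adjusted p = 2.37e-05, and 0.18 ± 0.14 at 168 hr, adjusted p = 0.227. The Mt2 slope was 0.18 ± 0.067 at 120 hr, adjusted p = 0.0234, and 0.33 ± 0.072 at 168 hr, adjusted p = 3.15e-05. With all mice at 0 to 300 cGy kept, in a fit on those doses alone, the Mt2 slope was 0.185 at 120 hr, adjusted p = 0.166, and 0.32 at 168 hr, adjusted p = 0.00599, and the Mt1 slope was 0.65, adjusted p = 0.00108, and 0.131, adjusted p = 0.473. Markers of other cell types moved as well at 168 hr, when 82.2% of all genes were called, 5777 falling and 4405 rising. With dose, 6 of 6 B cell, 7 of 7 T cell and 7 of 7 erythroid markers fell, and 8 of 8 tissue macrophage markers rose.

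**Figure D2:**
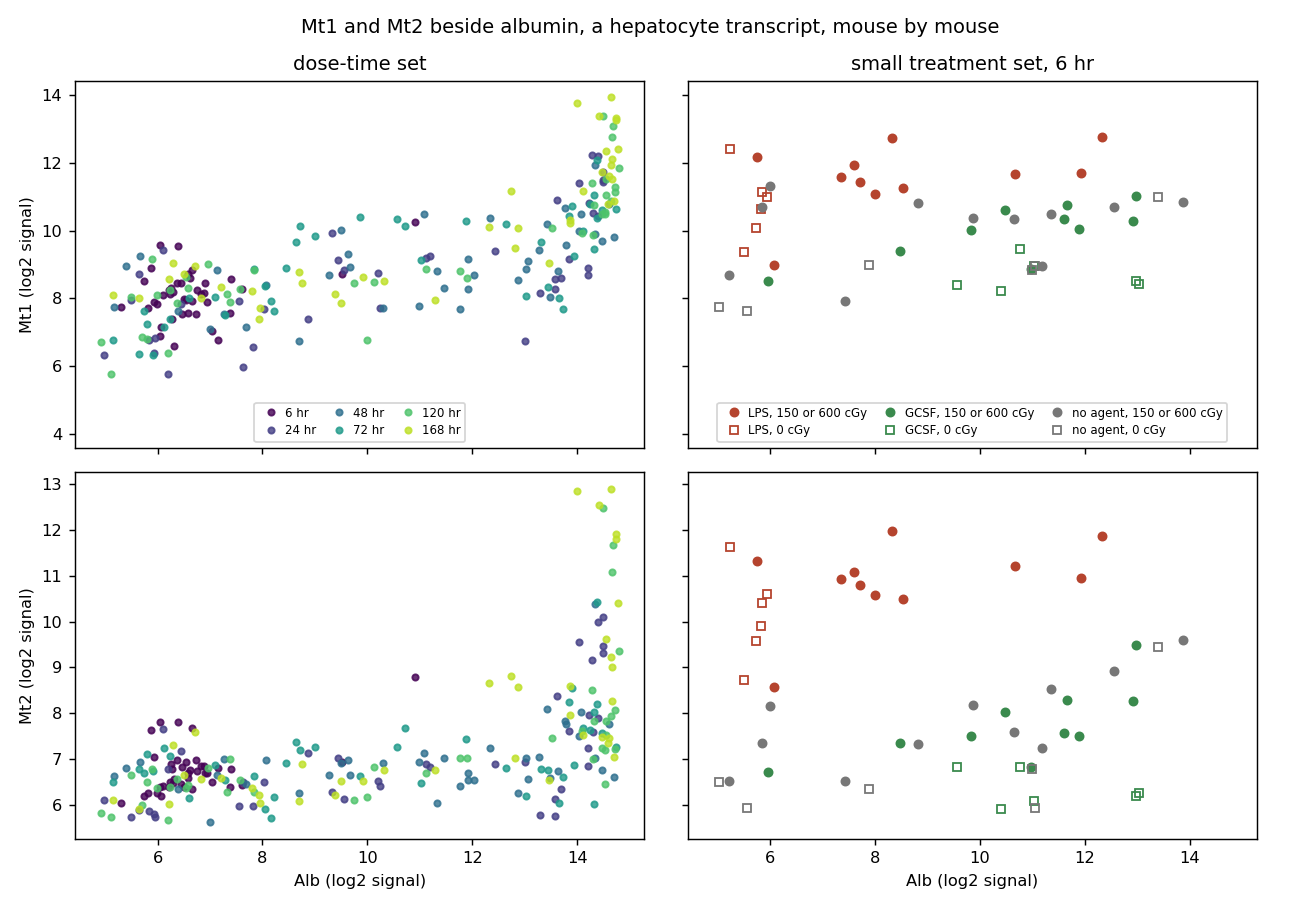
Mt1 and Mt2 log2 signals (vertical axes) against the Alb log2 signal (horizontal axes) of each mouse, for the dose-time set coloured by hours after exposure and for the small treatment set coloured by agent. Late mice of the dose-time set with high Mt1 also had high Alb, whereas the LPS mice at 0 cGy had high Mt1 and Mt2 with Alb between 5.24 and 5.95.

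At 48 and 72 hr the trends were smaller. At 48 hr Mt1 was 10.03, 10.19, 10.36, 10.50 and 11.94 at 1050 cGy, against 7.11, 7.62, 7.68, 8.04 and 9.10 at 0 cGy, without overlap. Mt2 was 6.91, 7.14, 7.24, 8.10 and 10.39, against 5.63, 6.35, 6.41, 6.56 and 6.59, also without overlap and with 1 irradiated mouse far above the rest. The slopes were 0.21 ± 0.044 for Mt1, adjusted p = 1.96e-05, and 0.14 ± 0.038 for Mt2, adjusted p = 0.00122, with 47.3% of genes called. No hepatocyte marker was called for a trend at 48 hr. Without the arrays with high Alb, the Mt1 slope was 0.20 and the Mt2 slope 0.061. That fit lost 4 of 5 mice at both 200 and 1050 cGy and 3 of 5 at every other dose, 0 cGy included. Without replicate 4 the Mt2 slope was 0.096, adjusted p = 0.0589.

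At 72 hr, Mt1 was 9.66, 10.12, 10.13, 10.29 and 10.34 at 1050 cGy, against 7.64, 7.70, 7.92, 8.0 and 8.01 at 0 cGy. Mt2 was 7.20, 7.26, 7.38, 7.45 and 7.69, against 5.72, 6.04, 6.15, 6.17 and 6.62. Both pairs of groups were tight and apart, while 200 cGy mice scattered between 6.34 and 12.07 for Mt1. The slope was 0.25 ± 0.044 for Mt1, adjusted p = 3.14e-07, and 0.091 ± 0.038 for Mt2, adjusted p = 0.036, beside 53.4% of genes called. The Mt2 call ended without replicate 2, 3, 4 or 5, with slopes of 0.066 to 0.104, and under the replicate block (0.085) or quantile normalisation (0.084).

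At 24 hr the metallothioneins were highest at an intermediate dose. Mt1 was 10.53, 10.82, 11.39, 11.49 and 11.72 at 300 cGy, against 6.58, 7.97, 8.17, 8.58 and 8.59 at 0 cGy, and Mt2 was 7.60, 7.97, 9.32, 9.56 and 10.11, against 5.75, 5.78, 5.98, 6.13 and 6.36. The differences were 3.21 ± 0.60, or 9.25-fold, for Mt1 and 2.91 ± 0.52, or 7.53-fold, for Mt2. All 5 of these irradiated mice had Alb between 14.04 and 14.50, and the 0 cGy mice had Alb between 5.49 and 13.70. At 450 cGy the Mt1 values split, at 5.77, 7.73, 8.69, 11.42 and 12.20. At 800 cGy Mt1 lay among or below the unirradiated values, at 5.97, 6.76, 7.70, 7.84 and 8.27. Mt2 did not follow this. It lay above every 0 cGy mouse in 5 of 5 mice at 450 cGy and in 4 of 5 at 800 cGy. Its range was 6.41 to 10.0 at 450 cGy and 5.77 to 7.17 at 800 cGy.

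The straight-line slopes at 24 hr, 0.063 ± 0.044 for Mt1, adjusted p = 0.242, and 0.068 ± 0.038 for Mt2, adjusted p = 0.141, were not called, against 38.7% of genes that were. A test for any difference among the 8 doses called both, with F = 11.2 and adjusted p = 2.26e-10 for Mt1 and F = 7.39 and adjusted p = 5.96e-07 for Mt2, beside 59.4% of genes. The same test called all 20 hepatocyte markers at this time. Without the high-Alb arrays the slopes were 0.11 for Mt1 and 0.12 for Mt2. That fit lost 5 of 5 mice at 300 cGy and 4 of 5 at both 450 and 600 cGy. It also lost 3 of 5 at both 0 and 200 cGy and 2 of 5 at both 800 and 1050 cGy. Without replicate 1 the Mt2 slope was 0.104, adjusted p = 0.0332.

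At 6 hr no dose trend was called for either gene. Mt1 was 7.90, 7.93, 8.12, 8.13 and 9.55 at 1050 cGy, against 6.91, 7.17, 7.73, 7.74 and 7.85 at 0 cGy, a difference of 0.85 ± 0.60. Mt2 was 6.36, 6.51, 6.86, 7.04 and 7.81, against 6.05, 6.19, 6.27, 6.27 and 6.40, a difference of 0.68 ± 0.52. The Mt1 groups did not overlap and the Mt2 groups did, by 1 mouse. Slopes of 0.068 ± 0.044, adjusted p = 0.229, and 0.057 ± 0.038, adjusted p = 0.243, missed the threshold, while 34.7% of genes passed it. The test over all doses also missed it, with adjusted p = 0.687 for Mt1 and 0.876 for Mt2 beside 46.4% of genes called. Mt2 passed for slope without the high-Alb arrays, at 0.041 with adjusted p = 0.0348.

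For the remaining times the test for any dose difference gave, at 48 hr, adjusted p = 0.0018 for Mt1 and 0.073 for Mt2, beside 56.3% of genes called. At 72 hr it gave adjusted p = 3.79e-05 for Mt1 and 0.119 for Mt2, beside 59% of genes. At 120 hr it called both, with F = 20.6 and 15.01, as it did 95.7% of genes, and at 168 hr it called both with F = 21.9 and 24.7, as it did 94.5% of genes. The slopes themselves differed between times for Mt1, F = 22.4 and adjusted p = 4.09e-17, and for Mt2, F = 20.9 and adjusted p = 3.75e-16, as those of 92.3% of genes did.

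**Figure D3:**
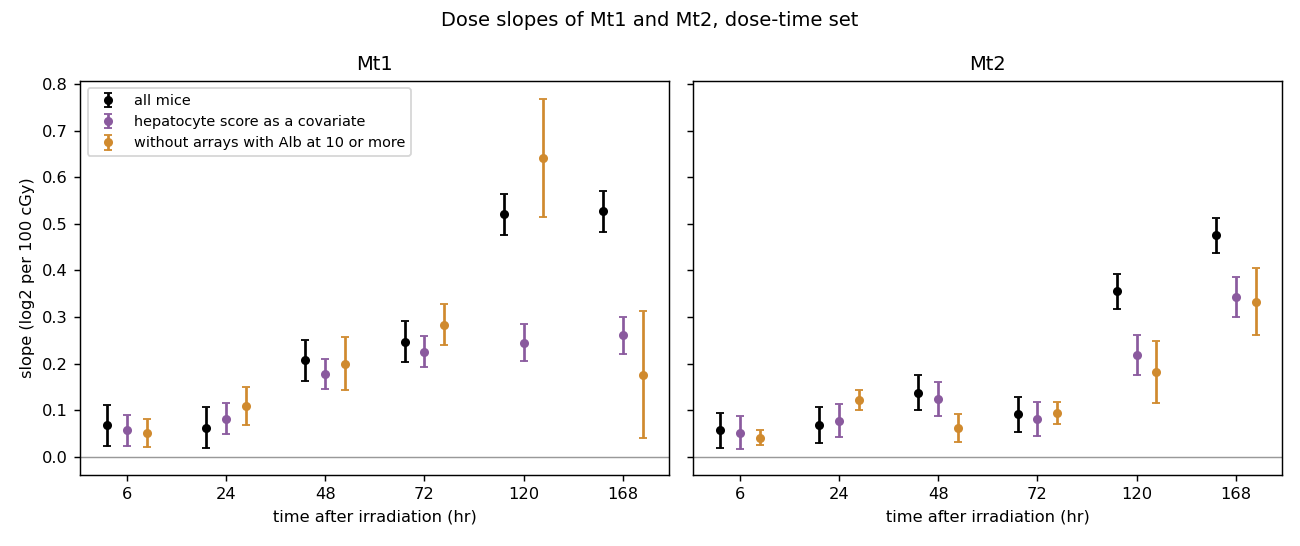
Slope on dose (log2 units per 100 cGy, vertical axis) of Mt1 and Mt2 at each time after exposure (hours, horizontal axis), with SE bars. Colours mark the fit with all mice, the one with the hepatocyte covariate and the one without arrays with Alb at 10 or above. With all mice, the slopes at 120 and 168 hr, between 0.35 and 0.53, stand above those at 6 and 24 hr, which lie between 0.057 and 0.068. These ranges do not cover the other fits.

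A number in the titles is read here as the array run, and each dose-time group had 1 mouse in each of 5 runs. Within single runs the slopes were positive in 5 of 5 runs at 48, 120 and 168 hr for both genes. At 120 hr they ran between 0.48 and 0.60 for Mt1 and between 0.22 and 0.46 for Mt2. At 168 hr they ran between 0.45 and 0.60 and between 0.31 and 0.56. The Mt2 slope was positive in 4 of 5 runs at both 24 and 72 hr.

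The second Mt1 probe set did not follow the first. Its slopes at 6, 24, 48, 72, 120 and 168 hr were 0.039, 0.037, -0.017, -0.006, -0.033 and -0.013 per 100 cGy. Its LPS minus no agent difference was 0.84 at 6 hr and 0.24 at 24 hr, smaller than those of the first probe set. The Mt1 results therefore rest on 1 of its 2 probe sets, and why they disagree was not tested.

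LPS raised both metallothioneins in unirradiated mice of the sex and treatment set, at both times. At 6 hr, Mt1 had a lowest, median and highest value of 9.71, 10.33 and 11.56 in 8 LPS mice, against 5.52, 7.30 and 8.72 in 10 mice without agent. Mt2 had 7.54, 9.13 and 10.44 in LPS mice, against 5.72, 6.15 and 7.85 without agent. The Mt1 ranges did not meet, and those of Mt2 overlapped at their edges. Averaged over the sexes, LPS minus no agent was 3.19 ± 0.47 for Mt1, or 9.12-fold with adjusted p = 1.09e-08, and 2.96 ± 0.41 for Mt2, or 7.81-fold with adjusted p = 8.72e-10. Some 35.2% of genes were called, and by size Mt1 ranked 17 and Mt2 24 from the highest of all genes.

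At 24 hr, Mt1 had 8.13, 9.86 and 11.97 in 9 LPS mice (lowest, median and highest), against 5.82, 6.71 and 7.78 in 10 mice without agent. Mt2 had 6.83, 8.51 and 10.79, against 5.65, 5.85 and 6.16. Neither gene's ranges met. The differences were 3.33 ± 0.45, or 10.1-fold with adjusted p = 2.14e-10, for Mt1 and 2.79 ± 0.39, or 6.93-fold with adjusted p = 6.77e-10, for Mt2, beside 21.9% of genes called.

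No hepatocyte marker was called with LPS, 0 of 20 at either time, with median differences of -0.21 at 6 hr and -0.23 at 24 hr. Their errors were wide: the Alb difference at 6 hr was -1.10 ± 1.30. Alb lay between 4.79 and 10.22 in the LPS mice at 6 hr, against 5.19 to 14.06 without agent. Without the arrays with Alb at 10 or above, the LPS differences were 3.41 for Mt1 and 3.07 for Mt2 at 6 hr and 3.82 and 2.56 at 24 hr, and all 4 were called. Of all genes, 35.2% were called with LPS at 6 hr, 1833 rising and 2535 falling. Blood cell markers did move: at 6 hr 5 of 7 neutrophil markers rose with LPS, while 7 of 7 T cell and 5 of 6 B cell markers fell. Their part in the metallothionein rise was not tested.

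By sex, LPS minus no agent at 6 hr was 2.28 ± 0.62 for Mt1 in males and 4.10 ± 0.71 in females. That male minus female difference was -1.81 ± 0.94 for Mt1, adjusted p = 0.493, and -1.91 ± 0.81 for Mt2, adjusted p = 0.306, beside 1.33% of genes called. At 24 hr it was -0.82 ± 0.90 for Mt1, adjusted p = 0.595, and -0.93 ± 0.78 for Mt2, adjusted p = 0.485, beside 1.65% of genes. Male minus female at 0 cGy without agent was 0.35 ± 0.44 for Mt1, adjusted p = 0.587, and 0.23 ± 0.38 for Mt2, adjusted p = 0.691, against 0.815% of genes called.

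GCSF did not change either gene detectably in unirradiated mice. At 6 hr, Mt1 had 5.59, 8.10 and 9.05 (lowest, median and highest of 10 mice) with GCSF and 5.52, 7.30 and 8.72 without agent, a difference of 0.54 ± 0.44 with adjusted p = 0.999. Mt2 had 5.36, 6.04 and 6.77 with GCSF and 5.72, 6.15 and 7.85 without, a difference of -0.18 with adjusted p = 0.999. At this time limma called 0 genes, that is 0% of them, though 283 had an unadjusted p under 0.05. At 24 hr, Mt1 had 7.13, 7.69 and 8.92 with GCSF and 5.82, 6.71 and 7.78 without, a difference of 1.02 ± 0.44 with adjusted p = 0.272, and the Mt2 difference was 0.14 with adjusted p = 0.835, beside 0.549% of genes called. With only the groups of that comparison in the fit, Mt1 at 24 hr was called.

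**Figure D4:**
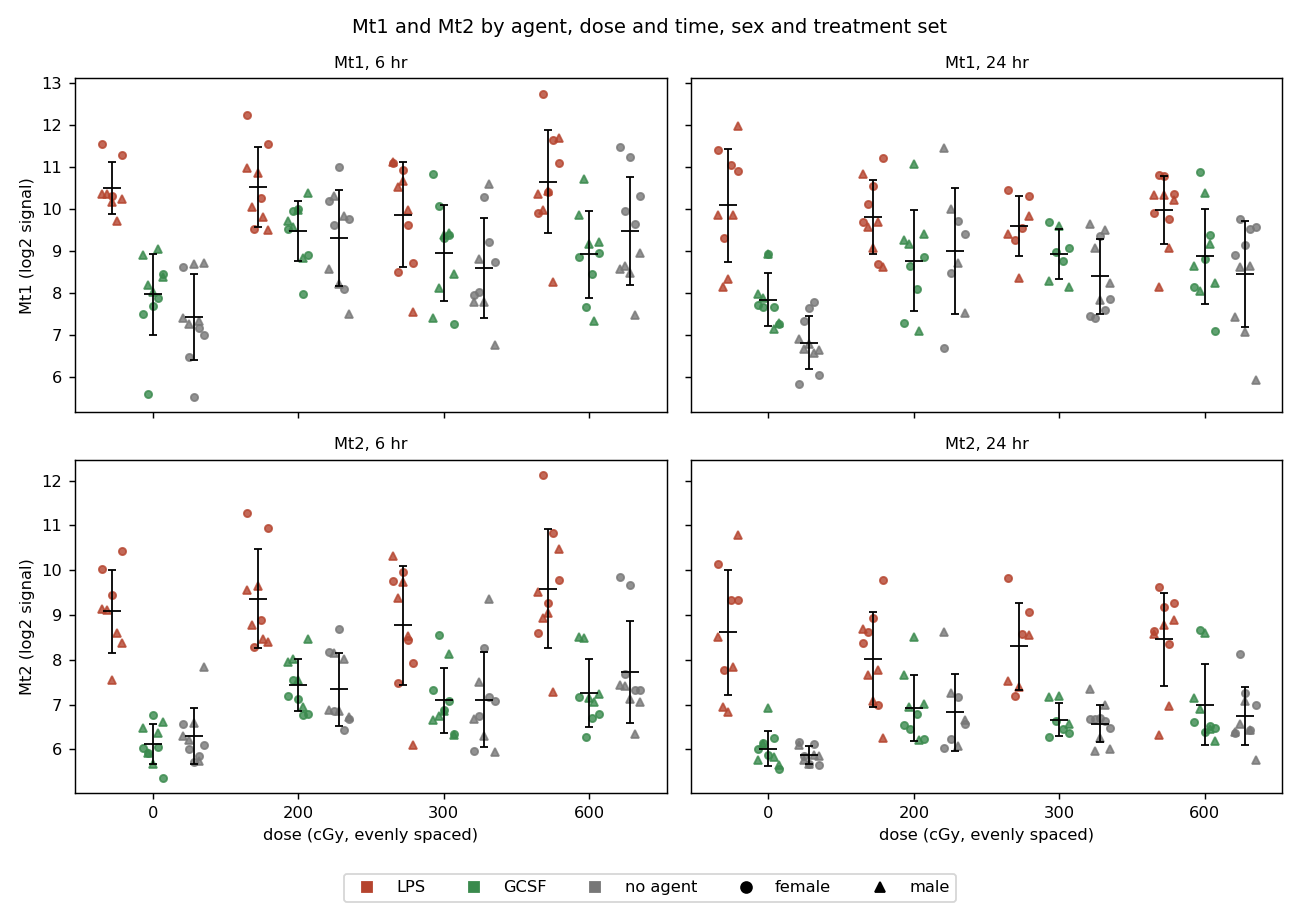
Mt1 and Mt2 log2 signals (vertical axes) of mice of the sex and treatment set by dose (horizontal axes, cGy) at 6 and 24 hr, coloured by agent, circles for females and triangles for males, with the mean and SD over both sexes. At every dose and both times the LPS mean lies above the GCSF and no-agent means.

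Averaged over the sexes, radiation without agent raised Mt1 in this set at both times and Mt2 at 6 hr. At 6 hr the Mt1 means at 0, 200, 300 and 600 cGy were 7.42 ± 1.03, 9.31 ± 1.14, 8.59 ± 1.19 and 9.48 ± 1.28 (SD, n = 10 each), and the Mt2 means were 6.30 ± 0.63, 7.35 ± 0.81, 7.11 ± 1.06 and 7.72 ± 1.13 (SD, n = 10 each). The mice at adjacent doses overlapped widely. Slopes were 0.30 ± 0.071 per 100 cGy for Mt1, adjusted p = 0.000908, and 0.22 ± 0.062 for Mt2, adjusted p = 0.00608, beside 19.9% of genes called, and Mt1 ranked 8 by size among all genes. The Mt2 call ended without replicate 1 (slope 0.185, adjusted p = 0.0518) or replicate 3 (0.185, adjusted p = 0.052). At 6 hr in the dose-time set, over a wider dose range, neither slope was called, and the 2 sets were not compared by a test. None of the 20 hepatocyte markers was called for this trend.

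At 24 hr the Mt1 means at 0, 200, 300 and 600 cGy were 6.81 ± 0.63 (SD, n = 10), 9.0 ± 1.5 (SD, n = 8), 8.39 ± 0.90 (SD, n = 10) and 8.45 ± 1.26 (SD, n = 10). Every irradiated group lay above the unirradiated mean, without a graded order among the doses. The slope was 0.22 ± 0.072 for Mt1, adjusted p = 0.00829, and 0.12 ± 0.062 for Mt2, adjusted p = 0.105, beside 41.2% of genes called.

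The Mt1 rise at 6 hr was larger in females than in males in these mice, by a test that was added after the data were seen. Mt1 at 600 cGy was 7.48, 8.48, 8.58, 8.65 and 8.95 in males, against 7.26, 7.34, 7.40, 8.69 and 8.72 in males at 0 cGy. In females it was 9.65, 9.96, 10.30, 11.24 and 11.48 at 600 cGy, against 5.52, 6.48, 7.0, 7.17 and 8.62 at 0 cGy. The male groups overlapped and the female groups did not. The 600 minus 0 cGy difference was 0.54 ± 0.62 in males and 3.57 ± 0.62 in females for Mt1, and 0.53 ± 0.53 and 2.32 ± 0.53 for Mt2. The slope of males minus that of females was -0.47 ± 0.14 per 100 cGy for Mt1, adjusted p = 0.0178, and -0.29 ± 0.12 for Mt2, adjusted p = 0.107, beside 10.3% of genes called.

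The highest Alb was 9.60 in males at 600 cGy and 14.06 in males at 0 cGy, and it was 13.37 in females at 600 cGy and 9.29 in females at 0 cGy. The Mt1 difference of slope was -0.26, adjusted p = 0.196, without the high-Alb arrays, -0.31, adjusted p = 0.122, with the hepatocyte covariate, and -0.37, adjusted p = 0.127, without replicate 3. At 24 hr the difference of slope was -0.31 ± 0.14 for Mt1 and -0.12 ± 0.12 for Mt2, adjusted p = 1 for both. At that time limma called 0 genes, that is 0% of them, though 296 had an unadjusted p under 0.05, and 600 minus 0 cGy was 0.83 ± 0.62 in males and 2.45 ± 0.62 in females for Mt1.

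Under GCSF the Mt2 slope was called at 6 hr, at 0.15 ± 0.064 with adjusted p = 0.04, and the Mt1 slope was not, at 0.11 with adjusted p = 0.19, beside 52.6% of genes. The Mt2 call ended without the high-Alb arrays and without replicate 1, 2, 3 or 4, where the slope lay between 0.126 and 0.166. At 24 hr neither slope was called, with 0.16 and adjusted p = 0.0809 for Mt1 and 0.14 and adjusted p = 0.061 for Mt2, beside 30.6% of genes. The slopes under GCSF did not differ detectably from those without agent. The differences of slope were -0.19 (adjusted p = 0.683) for Mt1 and -0.066 (adjusted p = 0.853) for Mt2 at 6 hr, where 0.0161% of genes were called, and -0.059 and 0.023 (adjusted p = 1 for both) at 24 hr, where 0.00807% were.

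Under LPS no dose trend was called for either metallothionein. The Mt1 means at 0, 200, 300 and 600 cGy at 6 hr were 10.50 ± 0.61 (SD, n = 8), 10.52 ± 0.95 (SD, n = 9), 9.87 ± 1.25 (SD, n = 10) and 10.65 ± 1.23 (SD, n = 10). The Mt2 means at the same doses were 9.08 ± 0.93, 9.36 ± 1.11, 8.77 ± 1.32 and 9.59 ± 1.33 (SD, the same mice). Slopes at 6 hr were -0.001 for Mt1, adjusted p = 0.991, and 0.044 for Mt2, adjusted p = 0.598, beside 32.2% of genes called. At 24 hr they were -0.024, adjusted p = 0.844, and -0.015, adjusted p = 0.889, beside 13% of genes.

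The slope under LPS minus the slope without agent was -0.30 ± 0.10 for Mt1 at 6 hr, adjusted p = 0.0657, and -0.17 for Mt2, adjusted p = 0.322, beside 6.45% of genes called. At 24 hr it was -0.24 ± 0.10 for Mt1, adjusted p = 0.0939, and -0.14 for Mt2, adjusted p = 0.361, beside 16.5% of genes. None of the 4 passed. With dose on a log2 scale the Mt1 differences passed at both times, and with the hepatocyte covariate the one at 6 hr did.

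The small treatment set, at 6 hr only, held a second LPS comparison. Mt2 had 8.72, 10.15 and 11.62 (lowest, median and highest of 6) in LPS mice at 0 cGy, against 5.94, 6.43 and 9.45 in 6 mice without agent. Mt1 had 9.38, 10.82 and 12.39 in the LPS mice, against 7.64, 8.90 and 11 without agent. In both genes the ranges overlapped because of 1 mouse without agent, which had the highest Alb of its group, 13.39. The differences were 3.31 ± 0.51, or 9.91-fold with adjusted p = 1.52e-06, for Mt2 and 1.90 ± 0.49, or 3.73-fold with adjusted p = 0.00264, for Mt1, beside 26.2% of genes called. All 6 LPS mice had Alb between 5.24 and 5.95, near the bottom of its range, and without the high-Alb arrays the differences were 3.87 for Mt2 and 2.64 for Mt1. Without replicate 5 the Mt1 difference was 1.33, adjusted p = 0.0677. The mouse without agent with Alb at 13.39 held place 6 in its group, so no fit left it out by number.

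GCSF minus no agent at 0 cGy was -0.19 for Mt1, adjusted p = 0.891, and -0.48 for Mt2, adjusted p = 0.705, beside 0.549% of genes called. Mt1 at 600 cGy without agent was 10.35, 10.68, 10.68, 10.81 and 11.30, against a lowest, median and highest of 7.64, 8.90 and 11 at 0 cGy, with 1 unirradiated mouse among the irradiated ones. That difference was 1.90 ± 0.51, adjusted p = 0.0139, and the Mt2 difference was 1.05 ± 0.53, adjusted p = 0.271, beside 7.38% of genes. The Mt1 call ended without replicate 1, 3 or 5, with differences of 1.70 to 1.76, and the Mt2 difference was 1.70 and was called under the replicate block.

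Under GCSF both genes rose at 600 cGy, by 1.88 for Mt1, adjusted p = 0.00463, and by 1.83 for Mt2, adjusted p = 0.00797, beside 25% of genes. Mt1 averaged 10.55 ± 0.38 (SD, n = 5) at 600 cGy and 8.67 ± 0.47 (SD, n = 6) at 0 cGy under GCSF, and Mt2 averaged 8.18 ± 0.80 and 6.35 ± 0.39 in the same mice. Without the high-Alb arrays the differences were 1.63 and 0.67 and neither was called, and without replicate 4 the Mt2 difference was 1.41, adjusted p = 0.0675. Under LPS the differences at 600 cGy, 1.18 for Mt1 with adjusted p = 0.0957 and 1.05 for Mt2 with adjusted p = 0.166, were not called, beside 16% of genes, and Mt1 passed without replicate 5, at 1.61.

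**Figure D5:**
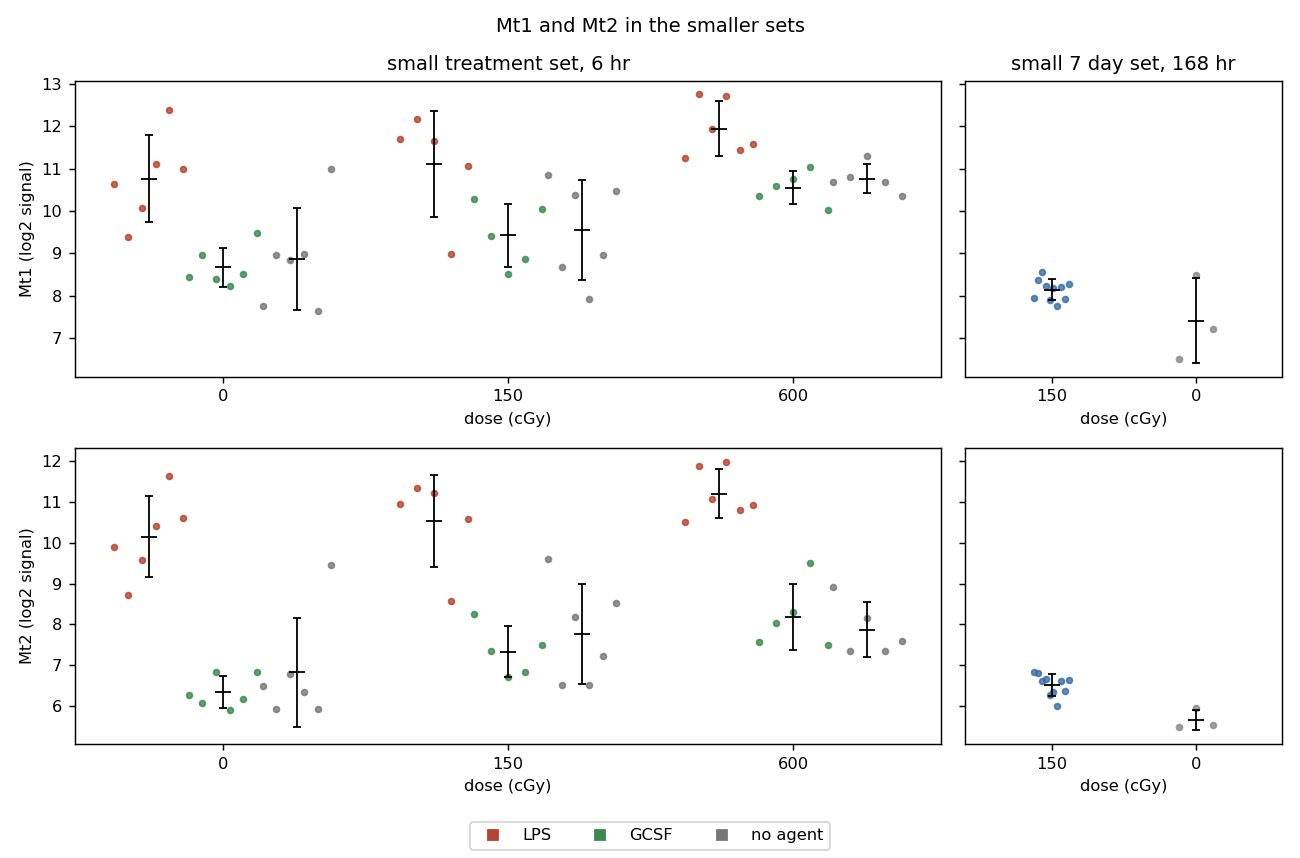
Mt1 and Mt2 log2 signals (vertical axes) of each mouse of the small treatment set at 6 hr, by dose in cGy and agent, and of the small 7 day set at 168 hr, by dose, with group means and SD. For Mt2 the LPS mice at 600 cGy, between 10.50 and 11.98, lie above every GCSF and no-agent mouse at that dose.

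In the small 7 day set, Mt2 had 6.00, 6.62 and 6.84 (lowest, median and highest of 10) at 150 cGy, against 5.50, 5.54 and 5.96 at 0 cGy. Mt1 had 7.76, 8.20 and 8.57 at 150 cGy, against 6.52, 7.21 and 8.50 at 0 cGy. Only the Mt2 groups were apart, and 1 unirradiated mouse lay inside the Mt1 range of the irradiated ones. The differences were 0.86 ± 0.18, or 1.81-fold with adjusted p = 0.000837, for Mt2 and 0.73 ± 0.27, or 1.66-fold with adjusted p = 0.0231, for Mt1, beside 67.1% of genes called. Here 15 of 20 hepatocyte markers also rose, with a median difference of 1.51 against 0.086 over all genes, as did 7 of 7 erythroid markers, while 7 of 7 T cell and 5 of 6 B cell markers fell. The Mt1 difference was 0.31, adjusted p = 0.344, without replicate 1, 0.58 without replicate 3, 0.69 without the high-Alb arrays, 0.57 with the hepatocyte covariate and 0.89 with the replicate block, and none of these was called.

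The size of the response differed between Mt2 and Mt1 in 3 of 10 comparisons. The slope on dose of Mt2 minus that of Mt1 was -0.16 per 100 cGy at 72 hr, adjusted p = 0.0073, and -0.17 at 120 hr, adjusted p = 0.0018, by permutation of the doses over the 40 mice of each time. At 6, 24, 48 and 168 hr the differences of slope were -0.011, 0.005, -0.069 and -0.052, and none passed. For GCSF at 0 cGy and 24 hr the Mt2 minus Mt1 difference was -0.88, adjusted p = 0.0073 by permutation over 20 mice, though neither gene alone was called. It lay between -1.06 and -0.67 with single replicates left out and missed the threshold without replicate 1 or 5. These p-values were adjusted over 10 such tests, and whether the 2 probe sets respond in proportion was not tested.

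Mice of 1 group differed more in these 2 genes than in most others. The pooled SD within groups of the dose-time set was 0.95 for Mt1 and 0.83 for Mt2, against a median of 0.27 over all genes, larger than in 98.1% and 97.5% of genes. It was 0.99 and 0.85 in the sex and treatment set and 0.89 and 0.92 in the small treatment set. In the small 7 day set it was 0.44 for Mt1, larger than in 84.0% of genes. For Mt2 it was 0.29 there, close to the median of 0.29.

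The 2 genes varied together among mice of the same group. Deviations from group means correlated with r = 0.62 and rho = 0.54 over the 240 mice of the dose-time set, r = 0.80 and rho = 0.78 over the mice of the sex and treatment set, and r = 0.89 and rho = 0.84 over the 50 mice of the small treatment set. Each had a permutation p of 1e-05, the smallest these permutations can give, and 1.3e-05 after adjustment over the 4 sets. Without the 2 mice farthest from the median, r was 0.60, 0.78 and 0.85. In the small 7 day set r was 0.42, with permutation p = 0.051, and rho 0.40, with p = 0.08. Both genes also varied within groups with the mean of the hepatocyte markers. Per unit of it, Mt1 rose by 0.32 ± 0.03 and Mt2 by 0.16 ± 0.03 in the dose-time set. The values were 0.27 ± 0.04 and 0.21 ± 0.03 (sex and treatment), 0.28 ± 0.07 and 0.34 ± 0.06 (small treatment) and 0.1 ± 0.13 and -0.05 ± 0.09 (7 day). The part of liver transcripts in the correlations was not tested.

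Among the 48 groups of the dose-time set, Mt1 and Mt2 means correlated at r = 0.91, a description of means that share their arrays. Genes whose group means were most like the average of the pair were Lims2 (r = 0.93), Ttc39c (0.93), the complement factor gene Cfb (0.93), the endocytic receptor gene Lrp1 (0.92), the acute-phase serpin gene Serpina3n (0.92) and H6pd (0.92). Sidt1 (r = -0.88), Actn2 (-0.87) and the cell cycle inhibitor gene Cdkn1b (-0.87) were most opposed. Alb had r = 0.80 and ranked 538, and the glucocorticoid-induced co-chaperone gene Fkbp5 had 0.74. The zinc sensor Mtf1 had r = 0.40, the zinc exporter gene Slc30a1 -0.26, the haem oxygenase gene Hmox1 0.43, the STAT3 feedback gene Socs3 0.21, the glucocorticoid receptor gene Nr3c1 -0.10 and Tsc22d3, a glucocorticoid target, 0.12.

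In the 48 groups of the sex and treatment set, r between Mt1 and Mt2 means was 0.92. The most similar were the neutrophil chemokine genes Cxcl2 (r = 0.94) and Cxcl1 (0.89), the immediate early gene Jun (0.89), the prostaglandin E synthase gene Ptges (0.87), the cytokine gene Il1a (0.86) and the endotoxin co-receptor gene Cd14 (0.85). Znrf2 (r = -0.85), Cers5 (-0.83) and Sh3glb2 (-0.80) were most opposed. Alb had r = -0.14, Hmox1 0.71, Socs3 0.51, Fkbp5 0.50, Mtf1 0.32, Slc30a1 0.11, Nr3c1 -0.19 and Tsc22d3 -0.31.

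The array also measured Mt3 and Mt4. Mt3, a form best known from brain, fell with dose at 48, 72, 120 and 168 hr, with slopes of -0.072, -0.084, -0.13 and -0.099 per 100 cGy. It was higher with LPS at 6 hr, by 0.31 with adjusted p = 0.0344, and in the small treatment set, by 0.28 with adjusted p = 0.0451. At 150 cGy in the small 7 day set Mt3 rose by 0.50, adjusted p = 0.00349, and Mt4 by 0.65, adjusted p = 0.00866, as Mt1 and Mt2 did. Mt4, known from stratified epithelium, lay near the bottom of the scale with a mean of 3.62.

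Genes that handle zinc moved both ways at 168 hr. Of 19 zinc transport and sensing genes measured of 25 listed, 10 rose and 7 fell with dose, with a median slope of 0.044 against -0.016 over all genes. Beside the 82.2% of all genes called at this time, these counts and those of the lists that follow are near the background. The importer genes Slc39a1 (0.25 per 100 cGy), Slc39a14 (0.23) and Slc39a7 (0.16) had the smallest p. Mtf1 rose by 0.044, adjusted p = 0.000292, and the MTF1 target gene Slc30a1 fell by 0.03, adjusted p = 0.0191. Of 17 copper and iron genes, 7 rose and 7 fell, and of 18 antioxidant genes, 10 rose, among them Txn1 (0.27) and Sod1 (0.25), and 6 fell, among them Gclm (-0.29).

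Acute-phase and glucocorticoid genes were counted at the same time, against the same 82.2% of genes called, 4405 rising and 5777 falling of 12393. Of 15 STAT3 and IL-6 response genes, 12 rose and 2 fell, with a median slope of 0.14, led by Lrg1 (0.56), the haptoglobin gene Hp (0.55) and Cebpb (0.26). Of 15 glucocorticoid response genes, 11 rose and 1 fell, with a median of 0.15, led by Klf9 (0.41), Mertk (0.37) and the macrophage scavenger receptor gene Cd163 (0.23). Tat is in this list and also among the 20 hepatocyte markers, which all rose at this time, as the tissue macrophage markers did. The part of these cell types in the counts was not tested. At 6 hr, when neither metallothionein was called, 12 of the 15 STAT3 and IL-6 genes already rose with dose and 0 fell. Their median was 0.16 against 0.004 over all genes, led by Socs3 (0.39), Lrg1 (0.44) and Cebpd (0.26). Of all 12393 genes 34.7% were called at 6 hr, 2004 rising and 2297 falling.

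With LPS at 0 cGy and 6 hr, 35.2% of all 12393 genes were called, 1833 rising and 2535 falling. Of the 19 zinc genes, 2 rose and 3 fell, among them the transporter gene Slc30a5, at -1.31. Mtf1 differed by 0.11, adjusted p = 0.319, and Slc30a1 by 0.022, adjusted p = 0.891. At 24 hr Slc30a1 was higher by 0.31, adjusted p = 0.0315. Of the 15 STAT3 and IL-6 genes, 8 rose and 2 fell at 6 hr, with a median of 0.81 against 0.063 over all genes, including the siderophore-binding protein gene Lcn2 (3.25) and the serum amyloid gene Saa3 (2.87). Of the 15 glucocorticoid genes, 6 rose and 1 fell, including Fkbp5 (1.38) and Per1 (0.75), and of the 18 antioxidant genes 4 rose and 2 fell, including the cystine transporter gene Slc7a11 (1.61) and Hmox1 (1.07).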

How the data were processed

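The data were the submitters' table of normalised values for 536 arrays. The authors deposited log2 expression values, made with RMA in the affy package per the submitters' processing notes. No version is given there, and whether all arrays were normalised together is not stated. Array medians lay between 5.61 and 5.93. Of 22690 probe sets, 64 controls, 1555 without a gene symbol and 691 with several symbols in the platform annotation were left out. The other 20380 gave 12393 genes, and each of the 4956 genes with several probe sets was represented by the one with the highest mean. Repeat scans of 2 mice were averaged. Replicates are separate mice, so precision is limited by the number of arrays.

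Groups came from the labels. Each set was fitted alone with a limma model of group means (lmFit, eBayes, Benjamini-Hochberg over all genes, threshold 0.05), as slopes per 100 cGy or differences of groups. The permutation tests used 100000 resamples and were two-sided. The fit was tested on simulated data. Mouse numbers in the titles were not taken to pair samples: residuals of same-numbered mice had mean correlations of 0.02 (dose-time mice), 0.04 (sex and treatment), 0.06 (small treatment) and -0.13 (7 day). Reading a code in the titles as the array run is an inference. The design text's batches are not assigned to arrays in the labels.

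The alternatives were an array-run block, a replicate block by the mouse number of the title, quantile normalisation and median centring. Others left out the dimmest 30% of genes, averaged the probe sets per gene, used the first scan alone or put dose on a log2 scale. Further ones kept doses of 0 to 300 cGy or added a hepatocyte covariate. Arrays with Alb at 10 or above were left out, or only the compared groups were fitted. The last left out the mouse at each of places 1 to 5 in its group, ordered by array run and mouse number. Mice at place 6 or later, in the smaller sets, were never left out by number. The genes named beside Mt1 and Mt2 were the 6 with the highest and the 3 with the lowest correlation of group means in each large set, 8 genes always named, and up to 3 per gene list with the smallest p. The tests of male minus female responses were added after the data were seen. The members and lists were chosen with earlier results of these data known. Promoters came from RefSeq's GRCm38.p6 table. Analyses used R 4.3.3, limma 3.58.1, data.table (version 1.17.8), Python 3.11.15, numpy 2.4.6, pandas 2.3.3, scipy 1.17.1 and matplotlib 3.10.9.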

Additional observations from a re-analysis of the deposited data

Results flagged for a closer look

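In 206 combinations of gene and group tested for a single distant mouse, 18 were found, 8 for Mt1 and 10 for Mt2, 14 of them high and 4 low; chance gives about 1 in 20. In the dose-time set, high Mt1 values were 9.55 at 1050 cGy and 6 hr, 10.44 at 200 cGy and 24 hr, 12.23 at 600 cGy and 24 hr, 11.94 at 1050 cGy and 48 hr and 11.17 at 450 cGy and 168 hr. The low Mt1 value was 6.80 at 100 cGy and 120 hr. High Mt2 values were 8.80 at 800 cGy and 6 hr, 9.16 at 600 cGy and 24 hr, 7.77 at 600 cGy and 48 hr, 7.84 at 450 cGy and 120 hr and 11.90 at 800 cGy and 168 hr. Low ones were 5.63 at 0 cGy and 48 hr and 7.97 at 450 cGy and 168 hr. The 12.23 of Mt1 and the 9.16 of Mt2 came from the same mouse, whose group mates had 8.74 to 9.26 and 6.53 to 7.02. That mouse had Alb at 14.28.

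In the small treatment set Mt2 was high at 9.45 in 1 mouse at 0 cGy without agent and low at 8.57 in 1 LPS mouse at 150 cGy. In the sex and treatment set at 24 hr, Mt1 was high at 8.92 in 1 female at 0 cGy with GCSF and at 9.36 in 1 female at 300 cGy without agent, and Mt2 was high at 8.67 in 1 female at 600 cGy with GCSF. Over all sets, the mice with high values had Alb between 10.45 and 14.75, except 6.38 in the mouse at 1050 cGy and 6 hr. Those with low values had Alb at 5.79, 6.07, 7.0 and 13.86. A link between Alb and these values was not tested. Dose slopes differed between times after exposure, with F = 22.4 for Mt1 and F = 20.9 for Mt2, as reported above. The Mt1 slope without agent at 6 hr differed between the sexes by -0.47 per 100 cGy, male minus female. That test was added after the data were seen, and some alternative fits did not call it.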

How the results depend on the processing

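Of 1190 alternative values, 1113 kept their side of the threshold, 41 fell below it, 35 rose above it and 1 correlation moved. Changes of direction were counted only where the main or the alternative value passed, and 0 were found. Changes of sign between values that both missed the threshold were not counted, and F tests have no direction. The array-run block, the first scan alone and permuting doses within a run changed no call. The values that crossed follow, slopes being per 100 cGy or, on the log2 dose scale, per unit of that scale; the cause was not tested.

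With dim genes left out, the Mt2 slope under GCSF at 24 hr, 0.145, passed. With dose on a log2 scale, the slopes at 24 hr of 0.359 for Mt1 and 0.373 for Mt2, the Mt2 slope without agent at 24 hr (0.317), those under GCSF of 0.354 (Mt1, 6 hr), 0.399 (Mt1, 24 hr) and 0.349 (Mt2, 24 hr), and the Mt1 LPS differences of slope of -0.762 at 6 hr and -0.726 at 24 hr passed. Over 0 to 300 cGy, slopes at 24 hr of 1.20 for Mt1 and 0.98 for Mt2 passed, and those of Mt1 at 48 hr (0.249), 72 hr (0.311) and 168 hr (0.131) and of Mt2 at 48 hr (0.185) and 120 hr (0.185) did not. With the hepatocyte covariate, Mt1 at 24 hr (0.082), under GCSF at 24 hr (0.168) and in the LPS difference of slope at 6 hr (-0.324) and Mt2 under GCSF at 24 hr (0.152) passed, and Mt1 at 150 cGy in the small 7 day set (0.57) and in the male minus female slope at 6 hr (-0.306) did not.

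With the mean of the probe sets, Mt1 under GCSF at 6 hr (0.097) and at 600 cGy under LPS (0.794) passed. With median centring, Mt2 passed for any dose at 48 hr (F = 2.36) and for its slope under GCSF at 24 hr (0.156). With only the groups compared, Mt2 at 6 hr (0.057), Mt2 for any dose at 48 hr (F = 3.88), Mt1 with GCSF at 0 cGy and 24 hr (1.02) and Mt2 at 24 hr without agent (0.122) and with GCSF (0.145) passed, and Mt1 at 600 cGy without agent (1.90, adjusted p = 0.0503) did not. With quantile normalisation Mt2 at 72 hr (0.084) did not pass and under GCSF at 24 hr (0.155) did. With the replicate block Mt2 at 72 hr (0.085) and Mt1 in the small 7 day set (0.89) did not pass, and Mt2 for any dose at 48 hr (F = 2.35) and at 600 cGy without agent (1.70) did.

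Without arrays with Alb at 10 or above, Mt2 at 6 hr (0.041), Mt1 and Mt2 at 24 hr (0.110 and 0.122), and Mt2 for any dose at 6 hr (F = 2.41) and 72 hr (F = 3.62) passed. Mt2 at 48 hr (0.061), Mt1 at 168 hr (0.176), Mt1 for any dose at 48 hr (F = 2.47) and 168 hr (F = 1.12), Mt2 under GCSF at 6 hr (0.153), Mt1 and Mt2 at 600 cGy under GCSF (1.63 and 0.672), Mt1 in the small 7 day set (0.687) and the Mt1 male minus female slope at 6 hr (-0.263) did not. That setting removes all mice at 450 cGy or more at 120 and 168 hr. At 24 hr it removes 5 of 5 mice at 300 cGy and 4 of 5 at both 450 and 600 cGy. It also removes 3 of 5 there at both 0 and 200 cGy and 2 of 5 at both 800 and 1050 cGy. At 48 hr it removes 4 of 5 mice at both 200 and 1050 cGy and 3 of 5 at every other dose.

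With 1 replicate number left out at a time, mice at place 6 or later of a group always stayed in. The results that crossed lay between 0.045 and 0.104 for the Mt2 slope at 24 hr, 0.096 and 0.161 at 48 hr and 0.066 and 0.114 at 72 hr. F for any dose at 48 hr lay between 0.985 and 2.55. The Mt2 slope at 6 hr lay between 0.185 and 0.26 without agent and 0.126 and 0.166 under GCSF. In the small treatment set the ranges were 1.33 to 2.20 for Mt1 with LPS, 1.70 to 1.95 for Mt1 at 600 cGy without agent, 1.41 to 1.97 for Mt2 under GCSF and 0.745 to 1.61 for Mt1 under LPS. They were 0.306 to 1.25 for Mt1 in the small 7 day set, -1.06 to -0.67 for Mt2 minus Mt1 with GCSF, -0.524 to -0.373 for the Mt1 male minus female slope at 6 hr, and r of 0.401 to 0.764 for the correlation in the small 7 day set.

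Counts of called genes that moved by over 1.5 times in any setting were, with their lowest and highest over the settings, 4301 (2801 to 5955) for trend at 6 hr, 4798 (1981 to 6069) for trend at 24 hr, 5865 (3768 to 6616) for trend at 48 hr, 10208 (4497 to 10359) for trend at 120 hr, 5746 (3561 to 6927) for any dose at 6 hr, 7360 (3788 to 7706) for any dose at 24 hr, 6980 (3983 to 8312) for any dose at 48 hr, 68 (5 to 2874) for GCSF at 0 cGy and 24 hr. They were 4368 (2074 to 5726) for LPS at 0 cGy and 6 hr, 2708 (1521 to 3548) for LPS at 0 cGy and 24 hr, 2470 (1229 to 4945) for trend under no agent at 6 hr, 5108 (3227 to 5714) for trend under no agent at 24 hr, 6521 (4228 to 7458) for trend under GCSF at 6 hr, 3789 (1924 to 4103) for trend under GCSF at 24 hr, 3985 (1545 to 4472) for trend under LPS at 6 hr, 1617 (778 to 1861) for trend under LPS at 24 hr. Others were 2 (0 to 5) for GCSF difference of slope at 6 hr, 1 (0 to 17) for GCSF difference of slope at 24 hr, 799 (208 to 1014) for LPS difference of slope at 6 hr, 2051 (1074 to 2314) for LPS difference of slope at 24 hr, 101 (3 to 3639) for male minus female, 1280 (532 to 2203) for male minus female slope without agent at 6 hr, 0 (0 to 1) for male minus female slope without agent at 24 hr, 165 (25 to 293) for male minus female LPS difference at 0 cGy and 6 hr. The last were 205 (22 to 1331) for male minus female LPS difference at 0 cGy and 24 hr, 68 (2 to 3478) for GCSF at 0 cGy, small treatment set, 914 (417 to 1636) for 600 cGy under no agent, small treatment set, 1983 (1182 to 2164) for 600 cGy under LPS, small treatment set, 8314 (5348 to 8559) for 150 cGy, small 7 day set.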
